A study of Homo sapiens with 15 samples.

Results

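HOX genes encode homeodomain transcription factors that set position along the body axes. The group described here is the 9 HOX genes HOXA3, HOXA4, HOXA11, HOXA13, HOXB13, HOXC8, HOXC10, HOXD10 and HOXD13, found by their Entrez number in the deposited tables, and they are 9 of the 14432 genes there. A further 13 HOX genes have a row in these tables and serve below as the nearest comparison. The cells were HEK293T T-Rex, a human embryonic kidney line built to carry an inducible transgene. PHC1 was measured in cells with a PHC1 transgene, grown with hygromycin and pulled down on streptavidin beads, as PAR-CLIP (2 libraries) and as ChIP-seq (2 libraries). PHC1-dFCS, by its name a PHC1 without its FCS zinc finger, was measured in cells with that transgene by ChIP-seq (2 libraries). RNA polymerase II (RNAPII) PAR-CLIP (1 library with 4-thiouridine, 4SU, and 1 with 6-thioguanosine, 6SG), total nuclear RNA-seq (2 libraries) and ChIP-seq of RNAPII, EZH2, H3K27me3, H3K4me3 and input DNA (1 library each) came from cells with no transgene. The PHC1 libraries and those they are set against therefore differ in transgene and in reagent as well as in target, and these differences cannot be told apart. The labels do not say whether a line was 1 clone, nor whether replicates were separate cultures, so every p-value below refers to differences from library to library that could be technical in origin.

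Human HOX genes lie in 4 clusters, and genes with low numbers lie toward the 3′ end of a cluster and act toward the head, while genes with high numbers lie toward the 5′ end and act toward the tail. The clusters are a textbook target of Polycomb: PRC2, with its catalytic subunit EZH2, places H3K27me3 on silent HOX genes, and PRC1, of which PHC1 is a subunit, binds there. Trithorax-group complexes place H3K4me3 at the start of active genes. PAR-CLIP crosslinks a protein to RNA that holds a photoreactive nucleoside, so that the RNA bound by that protein can be sequenced, and its reads are reported as clusters, short stretches of the genome with the mean read coverage over each.

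The nuclear RNA libraries held 47.2M and 49.6M reads counted in genes (M, 1e6). Markers of a kidney and HEK293 identity had a median of 43.3 counts per 1e6 (CPM) over 7 genes, against 0.488 for 5 neuronal (2 of them above 1 CPM, with a summed level of 193 and 192 CPM), 0.216 for 4 fibroblast, 0.0822 for 5 blood, 0.0053 for 2 keratinocyte and 0.0726 for 5 hepatocyte markers. The PHC1 PAR-CLIP libraries held 696186 and 698056 clusters and RNAPII 667937 with 4SU and 45259 with 6SG, so that the 6SG library is the thinnest. In PHC1 replicate 1 the 10 deepest clusters of the genome held 22.6% of all coverage. The ChIP libraries held 32.5M to 43.1M reads, with a median of 8 to 24 reads per transcription start site (TSS) for EZH2, H3K27me3, RNAPII and input, and of 136 for H3K4me3.

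The sequences before 4 of the genes are shown because the chromatin and RNA measurements below turn on their starts. HOXD10 had the most RNA of the 9 and few H3K4me3 reads, HOXA13 and HOXD13 had much RNA and H3K4me3, and HOXA11 shares its start region with a divergent noncoding gene. Each is the stretch of 250 bases that ends just before the start of the RefSeq transcript, 5′ to 3′ on the strand of the gene in GRCh38.p14, with every CG dinucleotide in capitals. HOXD10 lies on the plus strand (chr2:176116528-176116777), HOXD13 on the plus strand (chr2:176092471-176092720), HOXA13 on the minus strand (chr7:27200092-27200341) and HOXA11 on the minus strand (chr7:27185233-27185482).
HOXD10: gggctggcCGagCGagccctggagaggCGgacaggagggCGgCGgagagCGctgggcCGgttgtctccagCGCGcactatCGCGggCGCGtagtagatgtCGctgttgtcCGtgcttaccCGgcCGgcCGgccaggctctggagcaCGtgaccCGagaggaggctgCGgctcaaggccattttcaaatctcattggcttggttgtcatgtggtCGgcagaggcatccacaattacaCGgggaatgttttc
HOXD13: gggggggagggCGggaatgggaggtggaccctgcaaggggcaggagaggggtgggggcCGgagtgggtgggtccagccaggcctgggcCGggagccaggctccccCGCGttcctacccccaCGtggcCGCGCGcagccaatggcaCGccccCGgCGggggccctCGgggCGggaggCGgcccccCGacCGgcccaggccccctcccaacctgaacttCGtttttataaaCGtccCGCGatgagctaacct
HOXA13: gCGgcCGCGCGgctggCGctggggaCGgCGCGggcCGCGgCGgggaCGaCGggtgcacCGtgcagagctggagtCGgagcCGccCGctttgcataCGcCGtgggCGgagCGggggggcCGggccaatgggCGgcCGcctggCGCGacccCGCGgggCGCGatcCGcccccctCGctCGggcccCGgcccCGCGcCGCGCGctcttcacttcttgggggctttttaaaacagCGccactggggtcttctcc
HOXA11: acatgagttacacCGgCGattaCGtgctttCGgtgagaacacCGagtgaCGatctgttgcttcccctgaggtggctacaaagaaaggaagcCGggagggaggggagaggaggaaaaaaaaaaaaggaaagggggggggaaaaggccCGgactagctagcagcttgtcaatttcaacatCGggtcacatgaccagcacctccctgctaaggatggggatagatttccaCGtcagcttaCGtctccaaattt
HOXA13 held 40 CG dinucleotides, more than 98.1% of the 35116 RefSeq stretches of this length, whose median was 11. HOXD10 held 23, HOXD13 held 21 and HOXA11 held 11. HOXA4 held 26, and the 7 starts that RefSeq gives for HOXA3, spread over 38.7 kb, held 0 to 26. The letters TATAAA, searched on both strands, occurred in 10.7% of all stretches. They occurred before HOXD13, where they begin 27 bases before the start, and before 1 of the 7 HOXA3 starts. The letters TGATTNAT, a form of the site that HOX proteins bind with their PBX partners, were in none of the shown stretches and in 2.48% of all. HOXB13, HOXC8 and HOXC10 are named only.

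All 9 genes had nuclear RNA, in all 4 HOX clusters. Among these 9 the levels fell into a high and a low set, with other HOX genes between them, as given below. Of 14432 genes, 69.8% had at least 1 CPM in both libraries, and so did 9 of these 9. HOXD10, a posterior gene of limb and spinal cord (Entrez 3236, hg19 chromosome 2, 176981492 to 176984670), had 3783 and 4189 reads in the 2 libraries. Per length this was 25.2 and 26.6 CPM per kb of gene region (25.9 ± 0.943, SD, n = 2), above 97.9% of all genes. HOXA13, which patterns the distal limb and the urogenital tract (Entrez 3209, chromosome 7, 27236499 to 27239725), had 16.7 and 16.8 CPM per kb. HOXD13, which patterns the digits (Entrez 3239, chromosome 2, 176957532 to 176960666), had 14.6 and 15.8 CPM per kb. HOXA11, a gene of the forearm, kidney and uterus (Entrez 3207, chromosome 7, 27220776 to 27224842), had 12.5 and 12.2 CPM per kb. These 4 posterior genes of the A and D clusters did not overlap one another between libraries, and the lowest of them was 4.37-fold above the next gene.

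The other 5 genes lay between 1.64 and 2.83 CPM per kb. HOXA4, an anterior gene (Entrez 3201, chromosome 7, 27168126 to 27170399), had 2.90 and 2.76 CPM per kb. HOXC8, a gene of the thoracic level (Entrez 3224, chromosome 12, 54402890 to 54406545), had 2.42 and 2.76 CPM per kb. HOXA3, needed for thymus and parathyroid (Entrez 3200, chromosome 7, 27145809 to 27166639), had 2.40 and 2.59 CPM per kb. The libraries of HOXA4, HOXC8, HOXA3 and HOXB13 overlapped from each gene to the next, so their order is not resolved. HOXB13, a gene of the tail bud and prostate (Entrez 10481, chromosome 17, 46802127 to 46806111), had 2.425 and 2.417 CPM per kb from 456 and 478 reads. HOXC10, a lumbar gene (Entrez 3226, chromosome 12, 54378946 to 54384062), was lowest, at 1.50 and 1.79 CPM per kb, and still above 67.5% of all genes. In these bulk samples, fewer cells that express a gene and less RNA per cell cannot be told apart. The HOXA3 region in the table is 20831 bases long, while the others are 2274 to 5117, so its level per kb is spread over more sequence.

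**Figure D1:**
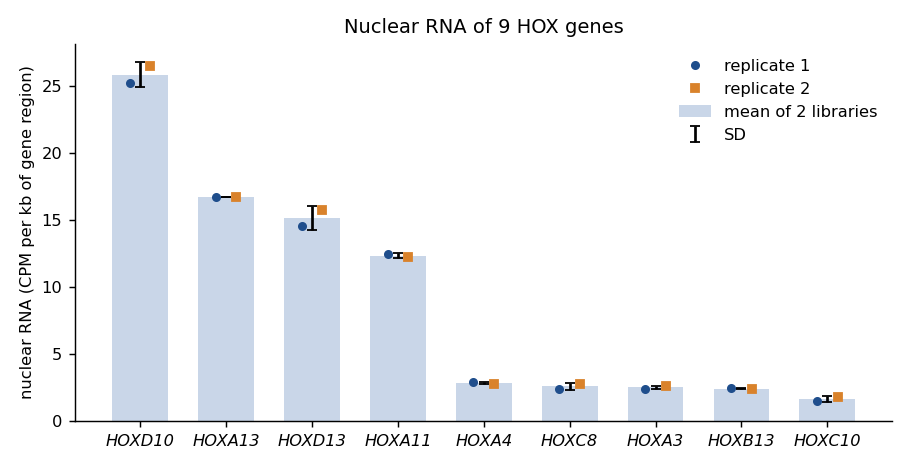
Nuclear RNA of the 9 HOX genes in CPM per kb of gene region. Bars are means of 2 libraries, whiskers the SD, and the points each library. HOXD10, HOXA13, HOXD13 and HOXA11 lie at 12.3 or more on average and the other 5 genes at 2.83 or less.

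With the 13 other HOX genes included, 20 of 22 had at least 1 CPM in both libraries: 6 of 6 in cluster A, 4 of 5 in B, 3 of 4 in C and 7 of 7 in D. HOXB1, the hindbrain gene at the 3′ end of its cluster, had 0 reads in both libraries, and HOXC12 had 1 and 0. The median over genes was 8.43 CPM per kb in cluster D against 2.86 in A, 2.42 in B and 2.12 in C, from 7, 6, 5 and 4 genes. HOXB9 (14.6 CPM per kb), HOXD11 (11.8) and HOXC9 (11.2) were close to the high set of the 9. HOXD9 (8.43), HOXD4 (7.38), HOXD8 (5.34) and HOXB7 (4.76) lay between the high and the low set, so that division holds for the 9 genes alone. The D cluster therefore held the highest gene, and every cluster held at least 1 gene at 11.2 CPM per kb or more.

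At the TSS, H3K4me3 marked 7 of the 9 genes, and neither H3K27me3 nor EZH2 reached 2-fold over input at any of them. A gene counted as marked where CPM plus 1 was at least 2-fold the input CPM plus 1, which held for H3K4me3 at 59.4% of all TSS, for H3K27me3 at 0.0139%, for EZH2 at 0.0277% and for RNAPII at 23.3%. H3K27me3 and EZH2 were thus called almost nowhere in these tables, and 0 of 9 is what that background gives. HOXB13 had 269 H3K4me3 reads against 15 input reads, a depth-scaled ratio of 16.2 (95% exact interval 9.64 to 29.3, counting error only). HOXA11 had 239 against 11 reads, HOXC8 188 against 5, HOXD13 120 against 9, HOXA13 115 against 4, HOXC10 109 against 12 and HOXA4 102 against 5. Their ratios ran from 8.20 at HOXC10 to 33.9 at HOXC8, and each interval lay wholly above 1. These read numbers are net of a constant of 10 reads per TSS that no source states and that was inferred from the values. With it left in, the ratios of the 7 genes ran from 4.88 at HOXC10 to 11.9 at HOXC8, and all 7 intervals stayed above 1.

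HOXD10 and HOXA3 stood apart. HOXD10, the gene with the most RNA, had 21 H3K4me3 reads against 6 of input, a ratio of 3.16 (1.23 to 9.56) that is below the call on CPM plus 1, and whose interval includes 1 with the constant left in (1.75, 0.927 to 3.42). It also had the fewest RNAPII reads at the TSS, 8, a ratio of 1.59 (0.483 to 5.55). HOXA3 had 24 H3K4me3 reads against 19 of input (1.14, 0.598 to 2.201) and 15 RNAPII reads (0.940, 0.445 to 1.95). Among the other HOX genes, HOXD9 (9 H3K4me3 reads at 8.43 CPM of RNA per kb), HOXD4 (13 reads at 7.38) and HOXA2 (17 reads at 2.14) likewise had RNA with few H3K4me3 reads at the TSS of the table. The table holds 1 TSS per gene and RefSeq gives HOXA3 7, so marks at other starts were not measured. Whether the HOXA3 TSS of the table, in hg19, is 1 of those 7 starts, in GRCh38.p14, was not tested.

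RNAPII reached 2-fold at 4 of the 9 genes, all of them also marked by H3K4me3: HOXB13 (68 reads), HOXD13 (63), HOXA11 (60) and HOXA13 (40). HOXA4 had 29 reads, a ratio of 6.91 (2.64 to 22.8), and HOXC8 had 19, a ratio of 4.52 (1.63 to 15.5), or 3.096 and 2.302 with the constant left in. HOXC10 had 17 reads (1.69, 0.759 to 3.87). At a pseudocount of 0.25 CPM in place of 1, 6 of the 9 reached 2-fold for RNAPII, where 45.9% of all TSS did, 7 for H3K4me3 (62.7%), 0 for H3K27me3 (2.16%) and 0 for EZH2 (1.63%). At 4-fold on CPM plus 1, H3K4me3 marked 3 of the 9, where 40.4% of all TSS passed, and RNAPII 0, where 0.353% did. HOXB13 thus had the most H3K4me3 and RNAPII reads of the 9 at its TSS and an RNA level per kb about that of HOXA3.

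H3K27me3, the mark of PRC2, gave 1 to 9 reads at each of the 9 TSS. HOXD10 had the most, 9, against 6 of input (1.35, 0.429 to 4.61), and HOXD13 the fewest, 1 against 9 (0.100, 0.00228 to 0.721). EZH2 gave 1 to 13 reads, and HOXC8 had the highest ratio, 2.48 (0.795 to 9.11), from 11 reads against 5. Only the H3K27me3 ratios of HOXA3 (0.379), HOXA11 (0.245) and HOXD13 had intervals wholly below 1, none of which did with the constant left in, and no H3K27me3 or EZH2 interval of the 9 lay wholly above 1. At this depth a smaller enrichment was not detectable. The silent HOXB1 had 24 EZH2 reads against 5 of input (5.41, 2.02 to 18.2) with 4 H3K27me3 reads and 2 H3K4me3 reads. HOXC12, also nearly without RNA, had 20 EZH2 reads against 14 (1.61, 0.774 to 3.45). Both were chosen after their values were seen.

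**Figure D2:**
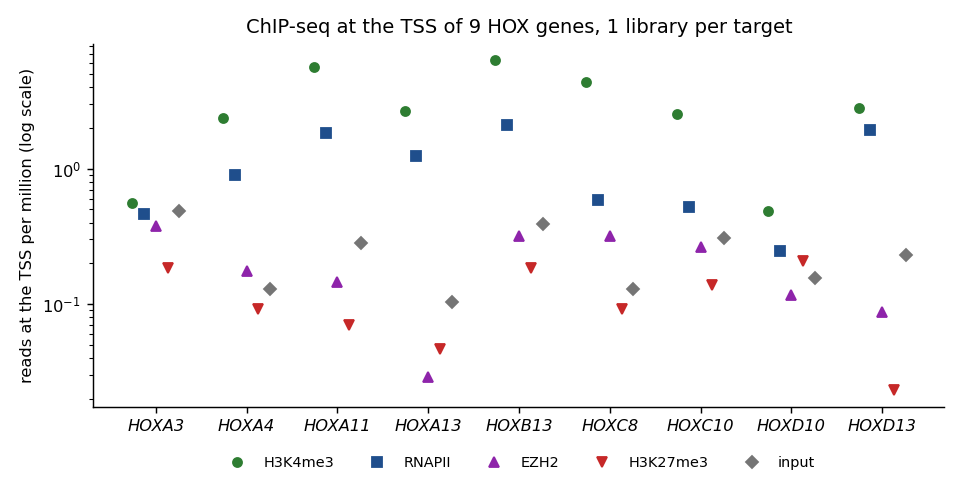
Reads at the TSS in CPM (log scale) for 5 ChIP-seq libraries, 1 per target, at each of the 9 genes. H3K4me3 lies far above input except at HOXA3 and HOXD10, and H3K27me3 and EZH2 lie near or below input.

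PHC1 itself did not reach 2-fold over input at any of these starts. The deposited PHC1 and PHC1-dFCS columns each join 2 libraries into the authors' value, with no SD or n, and are given after input was added back, as reads per 10M. PHC1 had its highest value at HOXA11, 4.19 against 2.84 of input, and its lowest at HOXC8, 1.37 against 1.29. On values plus 1, none of the 9 reached 2-fold over input, where 3.64% of all TSS did. PHC1-dFCS reached it at 1 of 9, HOXA13 (3.19 against 1.03), where 5.92% of all TSS did.

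PHC1-dFCS was above PHC1 at 7 of the 9 starts, where 60.1% of all TSS were. Log2 ratios are on values plus 1. HOXB13 had 6.34 for PHC1-dFCS and 2.38 for PHC1, a log2 ratio of 1.12, above 97.9% of TSS. HOXC10 had 6.24 and 2.80 (0.93), and HOXA13 3.19 and 1.57 (0.71). HOXA11 had 3.00 and 4.19 (−0.38) and HOXA4 2.48 and 2.93 (−0.17), the 2 genes where the value without the finger was lower. HOXA3 (0.47), HOXC8 (0.22), HOXD13 (0.17) and HOXD10 (0.14) lay between. The median log2 ratio was 0.22 over the 9 genes and 0.12 over all 14432, and 1 of 9 reached 2-fold, where 3.61% of all did. Without the added 1, an alternative chosen after seeing the data, 3 of 9 reached it (HOXB13 2.67-fold, HOXC10 2.23-fold, HOXA13 2.03-fold), where 9.74% of TSS above 0 in both did. There is no replicate check on these values, so whether the ratios exceed the spread between libraries was not tested.

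**Figure D3:**
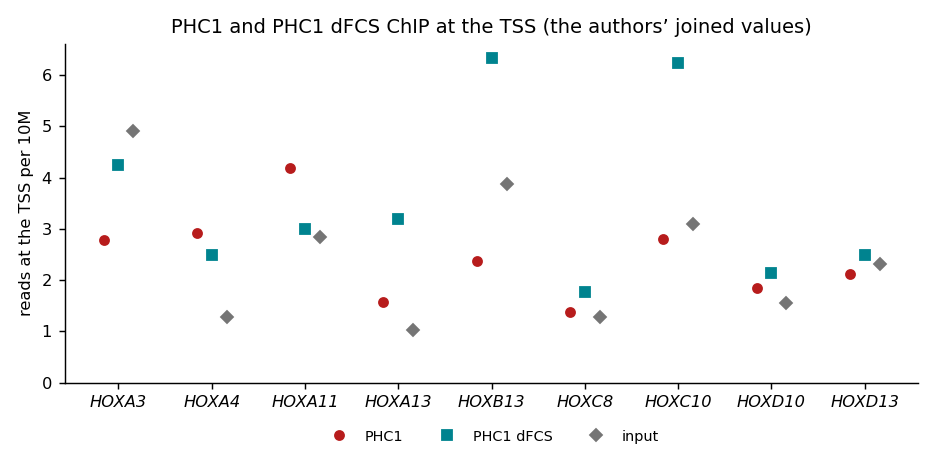
PHC1, PHC1-dFCS and input ChIP values at the 9 TSS in reads per 10M, as the authors' joined values without replicate error. PHC1-dFCS is highest at HOXB13 (6.34) and HOXC10 (6.24), and PHC1 exceeds it at HOXA4 and HOXA11.

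PHC1 bound RNA from 7 of the 9 genes in replicate 1 and from 8 of the 9 in replicate 2, where 75.5% and 74.1% of all genes had a cluster, and most of it came from 2 genes. HOXD10 and HOXC8 together held 68.9% of the summed PHC1 coverage of the 9 genes in replicate 1 and 70.8% in replicate 2. Over all genes, 71% had at least 1 cluster in both PHC1 libraries, against 7 of these 9. HOXD10 had 10 and 13 PHC1 clusters, HOXC8 15 and 15, and HOXA3 29 and 14. HOXD13 had 8 and 6, HOXA4 4 and 8, HOXA13 4 and 2, and HOXA11 4 and 1. HOXC10 had 0 and 1, and HOXB13 is listed at 0 in both. RNAPII with 4SU had clusters at all 9 genes, from 1 at HOXB13 to 44 at HOXA3 (73.4% of all genes had 1 or more), and RNAPII with 6SG at 5 of 9 (45.4% of all).

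The deepest PHC1 cluster of the 9 genes was seen in 1 replicate, and the next deepest sites in both. It lies at the 5′ end of HOXD10, on the plus strand of hg19 chromosome 2, 176981519 to 176981565, with a mean coverage of 143.7 reads per base in PHC1 replicate 2. PHC1 replicate 1 has no cluster at that site, and RNAPII 4SU has one with 292.5. The HOXD10 site with the most coverage in both PHC1 replicates, 176983844 to 176983950, lies 75.7% of the way along the gene region. Averaged over the covered bases of all clusters in the site, it had 59.2 and 51.2 in PHC1 and 408.3 in RNAPII 4SU. A wider HOXD10 site, 176981670 to 176982204, had 29.8 and 31.4 in PHC1, 85.1 with 4SU and 55.5 with 6SG on the same measure. In HOXC8 the widest shared site, chromosome 12, 54404873 to 54405137, had 50.4 and 27.8 in PHC1, 177 with 4SU and 53.2 with 6SG. A narrow HOXC8 site, 54405278 to 54405300, had 38.9 and 52.0 in PHC1 and 32.9 with 4SU.

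Clusters of the 9 genes joined into 157 sites over the 4 libraries, of which 36 had both PHC1 replicates and 27 of those also RNAPII 4SU. In replicate 1, 45 of 74 clusters (60.8%, 95% exact interval 48.8 to 72.0) met a replicate 2 cluster, and in replicate 2, 45 of 60 (75.0%, 62.1 to 85.3) met one of replicate 1. Over all gene regions the shares were 67.2% and 70.8%, inside these intervals. With RNAPII 4SU, 60.8% and 76.7% of the PHC1 clusters of the 9 genes shared a base, against 30.7% and 29.3% over all gene regions. Clusters of 1 gene share its RNA and are not independent, and the difference from other genes was not tested. HOXC8 held 11 of the 36 shared sites, HOXA3 12, HOXD10 5, HOXD13 3, HOXA4 2, HOXA13 2 and HOXA11 1.

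The bound RNA was almost all from the strand of the gene. Of the summed coverage at the 9 genes, 97.1% and 99.6% in PHC1, 96.0% in RNAPII 4SU and 100% in RNAPII 6SG lay on the gene strand. Over all genes with a known strand the shares were 90.2%, 92.4%, 96.3% and 94.7%. All coverage of the 9 genes on the other strand lay in HOXA11 and HOXA3. At HOXA11, 505 of the PHC1 coverage in replicate 1 lay on the other strand and 231 on the gene strand, and in replicate 2 all 243 lay on the other strand. RNAPII 4SU had 5672 on the gene strand and 3032 on the other, and 6SG had 3197 on the gene strand alone. The site with both PHC1 libraries lies on the plus strand of chromosome 7, 27224749 to 27224768, at a mean coverage of 14.8 and 12.2, inside HOXA11 and before the region of HOXA11-AS, which begins at 27225027. In GRCh38.p14 the RefSeq start of this divergent noncoding gene lies 176 bases from that of HOXA11, so that the HOXA11 sequence shown above runs past it. HOXA3 had 1406 of 11574 on the other strand in PHC1 replicate 1, 0 of 9942 in replicate 2 and 7281 of 44848 with 4SU. RNA of neighbouring HOX transcripts that run through a gene region cannot be told apart from its own on the same strand.

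**Figure D4:**
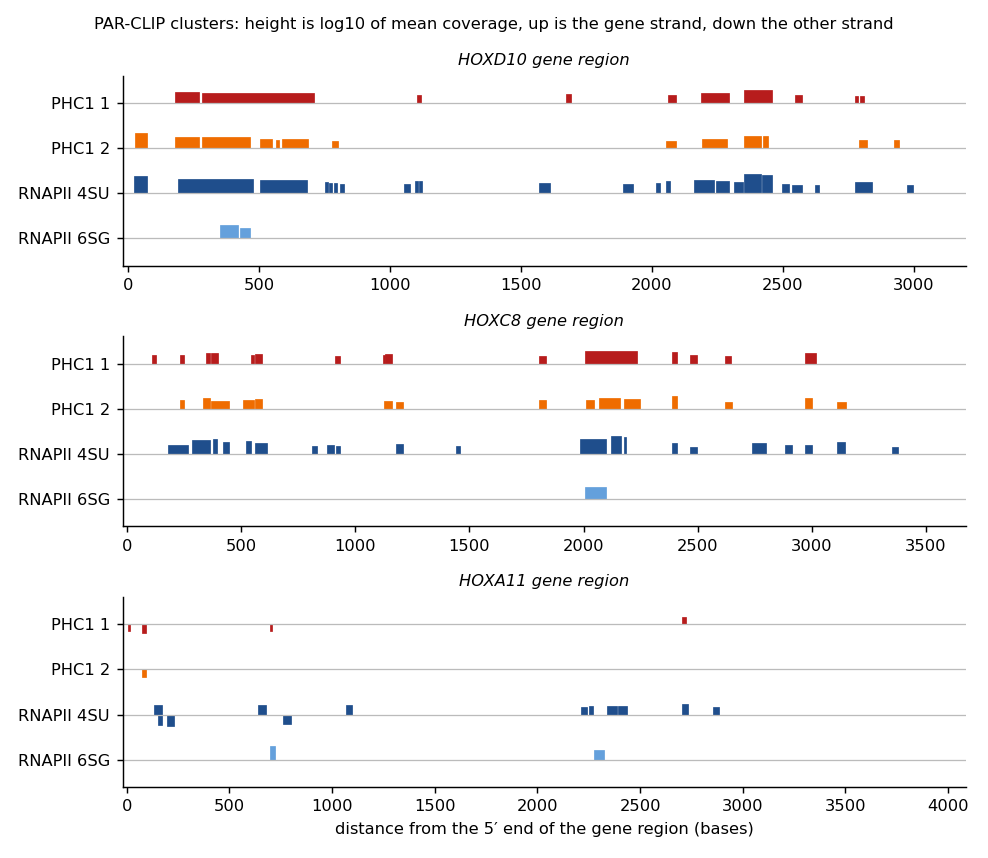
PAR-CLIP clusters along HOXD10, HOXC8 and HOXA11, by distance in bases from the 5′ end of the gene region, 1 line per library, with height proportional to log10 of the mean coverage and the gene strand drawn upward. Of 22 sites each, 5 in HOXD10 and 8 in HOXC8 hold clusters of both PHC1 libraries and RNAPII 4SU, and the clusters of PHC1 at HOXA11 lie mostly on the other strand near the 5′ end.

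Set against nuclear RNA, PHC1 signal was higher at 1 of the 9 genes, HOXC8, and lower at 6, and it was not called different at HOXA4 and HOXD10. Both kinds of library were scaled to per-million values and compared with limma over 9362 genes, with Benjamini-Hochberg adjustment over all of them. A gene was tested if it reached 5 per-million units in 2 libraries. HOXA11, HOXB13 and HOXC10 did so in the RNA libraries alone, so only a lower call was open to them. Of all genes tested, 35.5% were higher and 47.1% lower. Genes with short regions were mostly lower: among 783 genes with regions of 2 to 6 kb, 11.6% were higher and 76.9% lower, with a median log2 fold of −2.30 against −0.33 over all genes. Of the 8 HOX genes of that size, 1 was higher and 5 were lower, close to that background, so the low values are not set apart from those of other short genes.

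HOXC8 had 50.8 and 37.2 per-million units in PHC1 PAR-CLIP and 7.81 and 8.89 in nuclear RNA. The PHC1 mean was 5.27-fold the RNA mean, and neither PHC1 library overlapped the RNA libraries. RNAPII PAR-CLIP was higher still at HOXC8. Scaled together, RNAPII had 85.4 with 4SU and 80.5 with 6SG, against 48.9 and 35.8 in PHC1. The high PAR-CLIP value at HOXC8 was thus not particular to PHC1, and RNAPII PAR-CLIP against nuclear RNA was not tested. The log2 fold on values plus 1 was 2.25 ± 0.21 (SE, adjusted p = 0.00105). HOXC8 was called higher under every alternative that was run for this comparison, including library totals alone (1.91), a scaling that moved the median of all genes from −0.33 to −0.72.

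HOXA11 had 1.96 and 0.665 per-million units in PHC1 against 44.8 and 43.8 in RNA, a log2 fold of −4.35 ± 0.33 (adjusted p = 0.000612). As given above, most of that PHC1 signal was on the other strand, and HOXA11 passed the filter through RNA alone. HOXA13 had 6.58 and 1.96 against 47.7 and 47.6 (−3.36 ± 0.50, adjusted p = 0.00446). HOXD13 had 7.46 and 6.44 against 40.3 and 43.5 (−2.43 ± 0.15, adjusted p = 0.000324). These 3 posterior genes, with RNA levels per kb next to that of HOXD10, had PHC1 values below all RNA values.

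HOXD10 had 69.1 and 76.7 per-million units in PHC1 and 70.8 and 74.3 in RNA, overlapping values with a log2 fold of 0.0045 ± 0.093 (adjusted p = 0.966). Counted by number of clusters it was lower (−1.73, adjusted p = 0.00185). In the fit of gene-strand clusters, run over the 7377 genes of known strand that passed the filter, it was higher (0.34, adjusted p = 0.0281). All PHC1 coverage of HOXD10 lay on the gene strand, so that shift came with the set of genes and its scaling. The HOXD10 call rests on these choices. HOXA3 had 30.7 and 27.2 against 44.3 and 47.6 (−0.65 ± 0.12, adjusted p = 0.00826). It was not called by number of clusters (adjusted p = 0.505), nor without RNA replicate 1 (−0.70) or RNA replicate 2 (−0.60), where 1 RNA library is left. HOXA4 had 7.33 and 10.1 against 5.82 and 5.52, both PHC1 libraries above both RNA libraries, and was not called (0.53 ± 0.21, adjusted p = 0.0775). It was called higher in the gene-strand fit (0.85, adjusted p = 0.0281), though all its PHC1 coverage lay on that strand already. Its log2 fold was 0.73 without PHC1 replicate 1 and 0.35 without PHC1 replicate 2. Those fits leave 1 PHC1 library, so no spread between PHC1 libraries enters them.

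HOXB13 and HOXC10 had almost no PHC1 signal. HOXB13 had 8.54 and 8.48 per-million units of nuclear RNA and is listed at 0 in both PHC1 libraries, so no fold is given (adjusted p = 0.000137). HOXC10 is listed at 0 in replicate 1 and had 0.706 in replicate 2 against 6.78 and 8.05 in RNA (adjusted p = 0.00196). As HOXB13 and HOXC10 passed the filter through RNA alone, a lower call was the only call possible for them. HOXC8, in the same cluster as HOXC10 and with a per-million RNA value like those of both genes, had 37.2 or more.

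**Figure D5:**
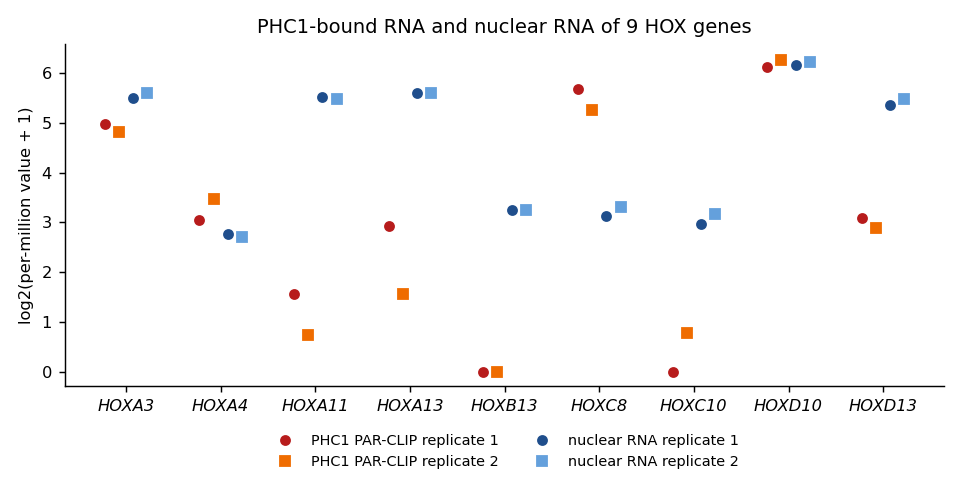
PHC1 PAR-CLIP and nuclear RNA of the 9 genes as log2 of the per-million value plus 1, with 1 point per library. HOXC8 is the gene with PHC1 called above RNA, HOXD10 has overlapping values, and HOXB13 lies at 0 in both PHC1 libraries.

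Against RNAPII PAR-CLIP, none of the 7 genes tested was called different by limma, and neither was any of the 8435 genes (0% higher, 0% lower, and at an unadjusted p under 0.05, 1195 higher and 649 lower). The control pair was 1 library with each nucleoside. HOXD10 had 66.5 and 73.8 per-million units in PHC1, 183 with 4SU and 100.02 with 6SG, so both PHC1 libraries were below both RNAPII libraries (−0.94 ± 0.46, adjusted p = 0.319). HOXC8 had 48.9 and 35.8 against 85.4 and 80.5 (−0.97 ± 0.41, adjusted p = 0.274), and HOXA3 29.6 and 26.2 against 69.7 and 60.6 (−1.19 ± 0.43, adjusted p = 0.229). HOXA11 had 1.88 and 0.640 against 13.5 and 51.5 (−3.67 ± 1.13, adjusted p = 0.199). The adjusted p of the 7 genes ran from 0.199 to 0.943. HOXA13 and HOXD13 are listed at 0 with 6SG and had 14.8 and 17.7 with 4SU. With the 4SU library as the sole control, HOXA13 (−1.77), HOXA3 (−1.29), HOXC8 (−1.01), HOXD10 (−1.37) and HOXD13 (−1.28) had negative log2 folds. With the 6SG library as the sole control HOXA3 (−1.12), HOXA4 (−1.36), HOXC8 (−0.95) and HOXD10 (−0.53) had negative log2 folds. HOXD13 had 2.91 there, a value set by its listed 0 with 6SG. It passed that filter through PHC1 alone, so only a higher call was open to it. Each of these fits leaves 1 RNAPII library, so no spread between RNAPII libraries enters them and no call is drawn.

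The other HOX genes with a row were called in both directions against nuclear RNA. Of 10 tested, 3 were higher and 3 lower, where 35.5% and 47.1% of all genes tested were. HOXB8 was higher by a log2 fold of 2.01 ± 0.20 (15.1 and 19.5 per-million units in PHC1, 3.65 and 3.41 in RNA), HOXD9 by 1.00 ± 0.16 and HOXD11 by 1.05 ± 0.31, while HOXB7 (−1.55) and HOXD8 (−2.86) were among those lower. HOXB8 and HOXC8, paralogs at the same position in their clusters, had the largest positive log2 folds among the 19 HOX genes tested. HOXD8, a paralog of both, was lower, so the paralogs did not share a direction. Of the HOX noncoding genes and neighbours, 5 were tested, 0 were higher and 3 lower. Among them were HOXA11-AS (−2.41, adjusted p = 0.000283) and HOTAIRM1 (−4.38, adjusted p = 0.000797). HOXD8 and HOTAIRM1 passed the filter through RNA alone, so only a lower call was possible for them.

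Genes whose products act with or on HOX genes were also called in both directions, as were all genes tested (35.5% higher, 47.1% lower). Whether the counts of these lists differ from those shares was not tested. Among 7 HOX cofactors, TALE homeodomain proteins that bind DNA with HOX proteins, 3 were higher and 3 lower. PKNOX1 was higher by a log2 fold of 2.14 ± 0.077, and MEIS1 was lower (−4.91 ± 0.35). Of 8 Trithorax-side genes, 5 were higher and 2 lower, with KMT2A, an H3K4 methyltransferase of HOX genes, higher by 1.85 ± 0.084 and MEN1, its partner, lower (−2.70 ± 0.43). Of 22 Polycomb genes, 9 were higher and 8 lower, CBX8, a chromodomain subunit of PRC1, being lower (−3.76 ± 0.14). These cofactor, Trithorax and Polycomb lists have median regions of 137, 29.2 and 58.5 kb, against 3.66 kb for the 9 HOX genes.

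Over 7 measures (log2 values of the 4 ChIP targets, PHC1, PHC1-dFCS and nuclear RNA, each standardised over all genes), the gene of the table most like HOXA11 was PIM2, at a distance of 0.262 standard deviations. The nearest gene to HOXC8 was IRX5 (0.605), to HOXD13 ID3 (0.555), to HOXD10 DAB2IP (0.477) and to HOXA13 ADAM23 (0.455). HOXA4 was nearest to PRICKLE3 (0.408), HOXB13 to COQ10B (0.581), HOXA3 to SENP2 (0.621) and HOXC10 to PELI3 (0.639). None of the 2 nearest genes of any of the 9 was a HOX gene.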

How the data were processed

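The members and all gene lists were chosen with earlier results of these data known. Values came from 15 libraries of HEK293T T-Rex cells (4 PAR-CLIP, 2 RNA-seq, 9 ChIP-seq). For PAR-CLIP, cells grown with 100 uM nucleoside were crosslinked at 365 nm, and for ChIP a 6-minute fixation in 1% formaldehyde was used, per the labels' protocols. The submitters' processing notes name hg19, Bowtie 0.12.7 and SAMtools 0.1.19 (PAR-CLIP), TopHat2 2.0.11 (RNA), Bowtie2 2.2.3 (ChIP) and 3 versions of R. The cluster caller, read counter and TSS window are not given in the sources used here.

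The authors deposited whole read counts per gene for nuclear RNA (1 further value column was not used). Their deposited PAR-CLIP signal is the mean coverage of each cluster. Their deposited ChIP score is, from its values, library-scaled reads at the TSS minus those of input. Every score was found to be whole reads per 10M (M, 1e6) minus input (tolerance 1e-08), and a constant of 10 reads, inferred from the lowest values of all 5 single libraries and stated in no source, was taken off. The joined PHC1 and PHC1-dFCS columns could not be split, so the edgeR test planned for replicate counts was not possible. Input was added back to them and their value at TSS without reads (2.79 and 3.54 per 10M) taken off.

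A cluster was given to the gene region that holds its midpoint, on either strand. Symbols matched for 14378 of 14432 genes, and strand came from RefSeq for 10969. For HOXB13, HOXC8 and HOXC10 the strand of another HOX gene of the cluster was used. Summed coverage and counts were scaled with TMM (edgeR 4.0.16) and tested with limma 3.58.1 (trend, robust, 2-sided) on log2 of the per-million value plus 1, for genes that reached 5 per-million units in 2 libraries. P-values were adjusted by Benjamini-Hochberg across the whole table tested, and 0.05 was the threshold. On simulated data for PHC1 against RNA (8935 genes), 30 of 100 genes changed 2-fold and 97 of 100 changed 4-fold were called, with 7 false calls. The simulation gave all libraries the same noise (coefficient of variation 0.25) and changed few genes. In the data most genes were called and the spread differed between PHC1 and RNA, so it does not measure the false calls here. Intervals are 95% exact and cover counting error only. The genes named are the 9 members and, from the lists, those a sentence needed. Likeness was the Euclidean distance over 7 standardised measures. Alternatives were other scalings, pseudocounts, filters, strand, cluster numbers, call thresholds and each library left out.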

Additional observations from a re-analysis of the deposited data

How the results depend on the processing

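Against nuclear RNA, leaving out each library in turn gave 2830 to 3021 genes higher and 2779 to 5097 lower, with the lowest counts of lower genes without an RNA replicate, where HOXA11, HOXB13 and HOXC10 left the filter. Each of those fits left 1 library in a group, so the spread came from the other group alone. The HOXD10 log2 fold was −0.021 with RLE size factors, −0.35 with totals alone and −1.73 by number of clusters. It was −0.041 to 0.075 without single libraries, and the cause was not tested. Against RNAPII, leaving out 1 library gave 0 to 4333 genes higher and 0 to 2248 lower (4 higher without PHC1 replicate 2), with no replicate left in the RNAPII arm when 1 nucleoside was dropped, where the lone library was assumed to vary like PHC1. Over these leave-outs HOXA13 ran from −1.77 to 0.89 and HOXD13 from −1.28 to 2.91. The value of 2.91 came with 6SG as the sole control, where HOXD13 is listed at 0. HOXC8 was 0.11 by number of clusters. At 4-fold over input 3 of the 9 genes had H3K4me3 and 0 had RNAPII. As a ratio without pseudocount, only HOXC8 reached 2-fold for EZH2 (2.48), with an interval that includes 1 (0.795 to 9.11). The share of all TSS at that rule is not given here, so no result is drawn from it. That rule was chosen after seeing the data. So were leaving the constant of 10 reads in, scaling PHC1 to input and taking the PHC1-dFCS ratio without a pseudocount. The median log2 ratio of PHC1-dFCS over PHC1 was 1.83 from deposited scores where both are above 0. This leaves out HOXA3, HOXB13 and HOXC10, whose PHC1 scores were below 0. Scores near 0 inflate such ratios, as at HOXD13 (PHC1 0.00038, PHC1-dFCS 1.13). The median over all TSS on this scale is not given here, so the value is not comparable to the median above. The gene-strand share by number of clusters was 91.9% in PHC1 replicate 1 and 90.4% in RNAPII 4SU. With the replicate number as a block, 3255 genes were higher and 4423 lower. Same-numbered libraries deviated together with a correlation of 0.036, the same value for both pairs because each group holds 2 libraries. It cannot say whether same-numbered libraries shared a culture, which the labels do not state. No paired analysis was possible against RNAPII because the groups share fewer than 2 replicate numbers.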
